A study of Mus musculus with 16 samples.

Results

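The regions described here are the stretches of the mouse genome at which a Meis1 peak was called in every one of 4 chromatin immunoprecipitation and sequencing (ChIP-seq) libraries of mouse heart ventricle. ChIP-seq recovers the DNA bound by a chosen protein, and a peak is a stretch where the recovered reads exceed the local background. The members were chosen by the deposited peak calls. Peaks of the 4 lists that shared at least 1 bp on chromosomes 1 to 19, X and Y were merged, and a merged region was kept when it held a peak of each list. This gave 610 four-library regions among 5069 merged regions. Of the others, 642 held peaks of 3 lists, 1085 of 2 lists and 2732 of a single list.

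The study asked how the aminoglycoside antibiotics paromomycin and neomycin (Paro/Neo), given together, affect where Meis1 and a second homeodomain factor, Hoxb13, bind in the postnatal mouse heart. Treated mice received Paro/Neo at 150 mg/kg by intraperitoneal injection 2 times a day for 7 days from postnatal day 7, and control mice received phosphate-buffered saline over the same days. Hearts were from mice at postnatal day 15, and the labels give neither strain nor sex. Meis1 was profiled in 2 Paro/Neo and 2 control libraries, and Hoxb13 in 2 and 2 libraries of a separately titled set. The labels name 2 hearts per sample as biological duplicates, so a library can be a pool of hearts or a single heart. A p-value over libraries therefore covers only the spread between these libraries. Whole ventricle holds cardiomyocytes together with endothelial cells, fibroblasts and other cells, and the Meis1 antibody is labelled as recognising Meis1/2, so Meis2 sites can be among the peaks.

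Meis1 is a homeodomain transcription factor of the TALE class, named for a loop of additional amino acids in the homeodomain. It binds DNA alone or together with the PBX and HOX homeodomain proteins, and its short core recognition sequence is TGACAG. In the heart, Meis1 is known for promoting the withdrawal of cardiomyocytes from the cell cycle after birth, and Hoxb13 has been described as its partner there.

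Of the 610 regions, 40 overlapped a promoter window of the RefSeq table of mouse promoters (build GRCm38.p6, whose coordinates are those of mm10), which gives 250 bases before and 50 after each gene start. The 8 sequences shown here are the 250 bases before a start for windows that a four-library region overlaps. They were picked after their values were seen, to show the pair of adjoining motif copies, windows with several copies, windows of heart muscle genes and a window with none. Each is written 5′ to 3′ along the strand of its gene and ends at the base before the start. Capitals mark each TGACAG, or its reverse complement CTGTCA, found in these bases.

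Cacna1c (chr6:119196410-119196659, minus strand): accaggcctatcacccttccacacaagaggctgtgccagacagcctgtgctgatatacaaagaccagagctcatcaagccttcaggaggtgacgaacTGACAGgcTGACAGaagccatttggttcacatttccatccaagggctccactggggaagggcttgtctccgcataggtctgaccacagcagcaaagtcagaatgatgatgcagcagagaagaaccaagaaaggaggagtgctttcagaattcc
Apobec2 (chr17:48432729-48432978, minus strand): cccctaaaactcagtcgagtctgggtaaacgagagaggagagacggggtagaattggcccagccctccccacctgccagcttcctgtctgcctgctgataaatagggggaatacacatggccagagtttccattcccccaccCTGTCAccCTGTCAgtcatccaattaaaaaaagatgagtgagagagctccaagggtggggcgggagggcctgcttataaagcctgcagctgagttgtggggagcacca
Zfp68 (chr5:138619744-138619993, minus strand): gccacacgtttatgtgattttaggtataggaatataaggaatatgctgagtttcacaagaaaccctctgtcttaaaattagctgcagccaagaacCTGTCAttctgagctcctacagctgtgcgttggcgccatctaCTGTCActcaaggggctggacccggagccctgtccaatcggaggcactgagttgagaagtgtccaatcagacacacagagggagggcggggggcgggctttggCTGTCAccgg
Lrrc10 (chr10:117045091-117045340, plus strand): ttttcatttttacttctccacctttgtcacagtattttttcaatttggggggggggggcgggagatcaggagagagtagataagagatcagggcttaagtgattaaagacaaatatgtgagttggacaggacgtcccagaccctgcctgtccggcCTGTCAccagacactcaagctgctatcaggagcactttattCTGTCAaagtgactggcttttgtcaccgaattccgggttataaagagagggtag
Gm41414 (chr16:5431144-5431393, plus strand): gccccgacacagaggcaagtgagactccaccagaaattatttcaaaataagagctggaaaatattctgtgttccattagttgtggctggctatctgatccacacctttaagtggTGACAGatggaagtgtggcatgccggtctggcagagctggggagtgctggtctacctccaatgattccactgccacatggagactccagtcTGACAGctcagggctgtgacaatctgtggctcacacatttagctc
Mylk3 (chr8:85365325-85365574, minus strand): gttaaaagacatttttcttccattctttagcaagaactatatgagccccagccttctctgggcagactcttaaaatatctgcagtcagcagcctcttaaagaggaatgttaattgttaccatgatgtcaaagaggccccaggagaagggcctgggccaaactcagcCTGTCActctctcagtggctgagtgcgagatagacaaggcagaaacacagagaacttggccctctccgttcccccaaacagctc
Cox7a1 (chr7:30183921-30184170, plus strand): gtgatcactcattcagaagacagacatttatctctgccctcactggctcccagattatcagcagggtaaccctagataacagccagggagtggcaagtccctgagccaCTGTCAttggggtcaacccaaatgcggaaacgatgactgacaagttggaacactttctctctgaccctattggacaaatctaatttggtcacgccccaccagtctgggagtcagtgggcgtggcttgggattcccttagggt
Popdc2 (chr16:38361940-38362189, plus strand): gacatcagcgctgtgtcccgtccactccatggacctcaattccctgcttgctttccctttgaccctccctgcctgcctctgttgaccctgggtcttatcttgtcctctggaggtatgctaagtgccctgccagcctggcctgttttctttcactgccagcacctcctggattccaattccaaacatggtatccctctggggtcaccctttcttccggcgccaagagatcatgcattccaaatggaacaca

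Cacna1c encodes the pore-forming subunit of the cardiac L-type calcium channel. Its window held TGACAG at 153 and 145 bases before one of its starts, which lies inside the gene, so that 2 bases separate the copies. Apobec2, a member of the cytidine deaminase family made mainly in heart and skeletal muscle, held the same arrangement on the opposite strand, at 108 and 100 bases before the start. This arrangement of 2 copies on one strand with 2 bases between them was found in 2 of the 47 windows overlapped by a four-library region. It was found in 0 of the 436 windows overlapped by a region of 1 to 3 libraries, and in 4 of all 32851 windows (0.0122%). The arrangement was defined from these same windows after they were seen, so the counts describe it and test nothing. Zfp68, a zinc finger gene, held 3 copies, at 155, 113 and 10 bases before the start. Lrrc10, a cardiomyocyte gene of a leucine-rich repeat protein, held 2, at 95 and 54 bases. The noncoding gene Gm41414 held 2, at 136 and 45 bases. Mylk3, the kinase that phosphorylates the cardiac myosin light chain, held 1 at 84 bases before one of its starts, and Cox7a1, the heart and muscle form of a cytochrome c oxidase subunit, held 1 at 142 bases. Popdc2, a membrane protein of heart and skeletal muscle, held none in the printed bases.

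The deposited fold, the enrichment of a peak over its local background as the peak caller gave it, placed these regions at different levels. At Cacna1c the fold was 6.86 and 7.61 in the Paro/Neo libraries and 7.84 and 7.78 in the control libraries. At Apobec2 it was 11.4 and 8.26 in the Paro/Neo libraries and 11.7 and 10.9 in the control libraries. Both Paro/Neo values lay below both control values at Cacna1c, while the groups overlapped at Apobec2. At Lrrc10 the fold was 4.79 and 6.24 in the Paro/Neo libraries and 8.52 and 8.69 in the control libraries, without overlap. At Cox7a1 it was 4.52 and 4.95 in the Paro/Neo libraries and 4.37 and 5.36 in the control libraries, with overlap. Each list has its own fold scale, so these values rank a peak within its own list and are not a measure of change between the groups.

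TGACAG, searched on both strands, was more frequent in the overlapped windows than in the table as a whole. It stood in 29 of the 47 windows overlapped by a four-library region (61.7%, exact Clopper-Pearson 95% interval 46.4 to 75.5%), where the background over all windows was 19.2%. The share was 57.1% of 70 windows for regions of 3 libraries, 51.9% of 108 for 2 libraries and 42.2% of 258 for 1 library. For the 1 to 3 libraries together it was 205 of 436 windows (47.0%, interval 42.3 to 51.8%), and for windows with no Meis1 region 18.7% of 32368. The intervals of four-library windows and of the 1-to-3-library windows overlapped, and no test was made. The intervals take windows as independent, although some windows share a region.

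Base composition differed between these sets of windows. Median GC content was 58.0% in four-library windows, 59.3% in windows of 1 to 3 libraries and 52.7% over all windows. Among windows of 45 to 55% GC, 13 of 15 four-library windows held TGACAG, against 52.3% of 109 windows of 1 to 3 libraries and 22.7% of windows with no region. Among windows of 55 to 65% GC, 9 of 18 four-library windows held it, against 47.2% of 195 and 18%. Among those over 65% GC, 7 of 12 held it, against 46.4% of 112 and 11.4%. Of the 2 four-library windows under 45% GC, 0 held it.

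Counted by region, 28 of the 40 four-library regions at a promoter window (70.0%) had a match in the window, and 24 of the 40 had one inside the region itself. For 363 other regions at a promoter the shares were 50.4% and 44.4%. Window bases inside a four-library region held 3.38 matches per kb and those outside it 1.45 per kb. The other regions gave 2.67 and 0.70 per kb, and all windows 0.726 per kb. The 40 distinct matches in four-library windows lay at a median of 32.5 bp from the centre of the region, and 21 of them within 50 bp. The 223 distinct matches in windows of the other regions lay at a median of 44 bp, and 118 of them within 50 bp. Closeness to the centre was thus not particular to four-library regions.

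**Figure D1:**
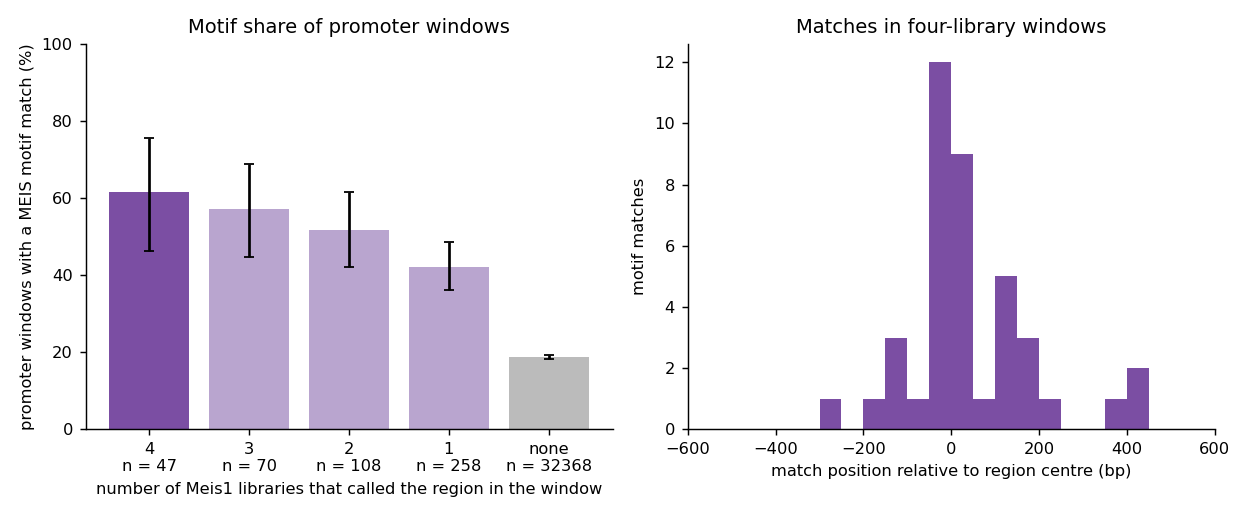
Left, share of promoter windows (%) with a TGACAG match on either strand by the number of Meis1 libraries that called the overlapping region, with 95% Clopper-Pearson intervals; the share was 61.7% for 4 libraries and 18.7% for windows with no region. Right, the 40 distinct matches of four-library windows by position from the region centre (bp), of which 21 lay within 50 bp. For the other regions, not drawn, 118 of 223 did.

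The composite motifs bound by PBX with HOX or MEIS proteins did not follow the same order. TGATTGAC stood in 1 of 47 four-library windows (2.13%), in 15 of 70 windows of 3 libraries (21.4%), in 4 of 108 of 2 libraries (3.70%) and in 23 of 258 of 1 library (8.91%), against 0.770% of all windows. TGATNNAT stood in 2 of 47 four-library windows (4.26%) and in 7.14%, 2.78% and 1.94% of the windows of 3, 2 and 1 libraries, against 8.85% of all windows. A match is a description of the letters in these windows, and the regions away from promoters, which are the great majority, were not searched.

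The four-library regions took up 39.6% of the peaks of Paro/Neo library 1 and 59.5% of those of Paro/Neo library 2, against 17.3% and 19.2% of the peaks of control libraries 1 and 2. The lists held 1541 and 1025 peaks in the Paro/Neo libraries and 3529 and 3176 in the control libraries. These groups are those of the labels, while the second-replicate Meis1 file names carry the other group's letter. With those lists exchanged, the list of 1025 peaks would be a control list and that of 3176 a Paro/Neo list. The order of the groups in list length, in these shares and in the peak strengths given below therefore rests on the labels. Of all merged regions, 30.4% and 20.2% were called in the Paro/Neo libraries and 69.6% and 62.6% in the control libraries. Regions that missed by 1 list show which list limited the set. Among the 642 regions called in 3 libraries, Paro/Neo library 2 was the missing one in 446, Paro/Neo library 1 in 170, and each control library in 13. Sequencing depth is unknown, and its part in list length was not tested.

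Because the rule needs a call in every list, the strength of the peaks is given as a description. The median fold of peaks in four-library regions was 5.84 and 5.64 in the Paro/Neo libraries and 7.37 and 7.40 in the control libraries. The other peaks of the same lists had medians of 4.51 and 4.43 in the Paro/Neo libraries and 4.48 and 4.54 in the control libraries. Of the 100 peaks of highest fold in each list, 98% and 97% in the Paro/Neo libraries and 96% and 97% in the control libraries lay in four-library regions. Ranked within each list, the four-library peaks had median fold percentiles of 73.9 and 66.4 in the Paro/Neo libraries and 88.8 and 87.8 in the control libraries. They were not only strong peaks, however. A total of 331 regions lay above the median of all 4 lists, 54 in the top 10% of all 4 and 9 below the median of all 4.

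**Figure D2:**
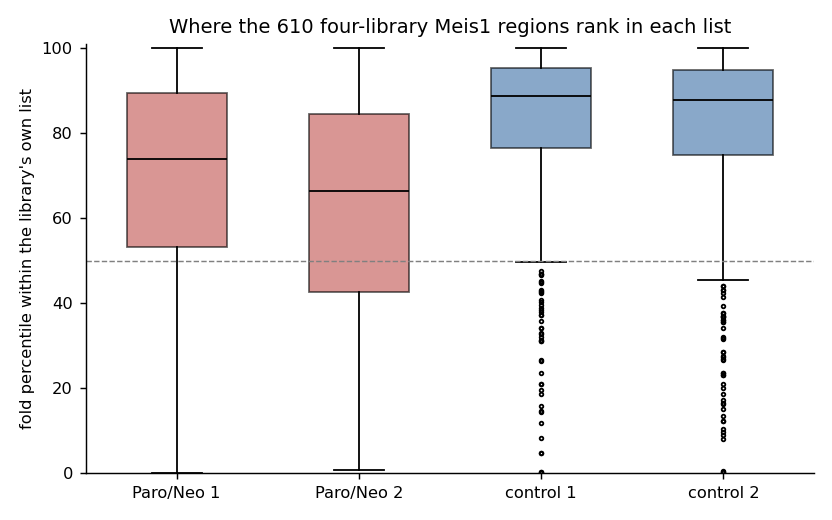
Fold percentile of the 610 four-library regions within each library's own list (y axis, 0 to 100), Paro/Neo libraries left of control libraries. The medians were 73.9 and 66.4 in the Paro/Neo libraries and 88.8 and 87.8 in the control libraries.

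Both Paro/Neo folds lay below both control folds in 300 of the 610 regions (49.2%) and above them in 16 (2.62%), and in the other 294 the groups overlapped. This order belongs to the lists as labelled. The names of the second-replicate Meis1 files carry the letter of the other group, and with those 2 lists exchanged the counts were 55 below and 85 above. The set of 610 regions is the same under both assignments. The order of the groups stated at single genes is to be read beside these shares, and it would change at many of them with the lists exchanged. Across regions, the Spearman correlation of the fold percentiles was 0.484 between the Paro/Neo libraries, 0.649 between the control libraries and 0.578 to 0.613 between the groups (n = 610 regions, which share chromatin and caller). The peaks of different libraries sat at nearly the same place, with a median distance between their centres of 19 to 23.0 bp. In 609 regions each library had a single peak. Region width had a median of 367 bp (250 to 5805 bp), and medians for regions of 3, 2 and 1 libraries were 323, 284 and 227 bp.

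The region of highest mean percentile lay in Gse1, a coiled-coil protein found with histone deacetylase complexes (chr8:120289738-120290215). Its fold was 19.2 and 19.5 in the Paro/Neo libraries and 15.6 and 21.5 in the control libraries, the groups overlapping. The next lay 80.5 kb from Lbh, a transcriptional cofactor of limb bud and heart (chr17:73022480-73023196), with folds of 13.8 and 19.5 in the Paro/Neo libraries and 16.9 and 18.8 in the control libraries. These groups also overlapped. At Myl2, the ventricular regulatory light chain of myosin (chr5:122094249-122094887), the fold was 12.5 and 17.3 in the Paro/Neo libraries and 18 and 19.6 in the control libraries, without overlap.

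Several of the 20 highest regions lay far from any protein-coding gene. The fifth lay 150 kb from En1, a homeodomain gene of brain and limb patterning, with folds of 14.2 and 19.1 in the Paro/Neo libraries and 13.1 and 15.3 in the control libraries. A region 138 kb from Kcnj2, the main inward rectifier potassium channel of ventricular muscle (chr11:111214926-111215346), had folds of 10.8 and 8.92 in the Paro/Neo libraries and 17.0 and 15.3 in the control libraries. The groups overlapped at the En1 region and not at the Kcnj2 region. The remaining regions of more than 100 kb among the 20 had Adgrl2 (520 kb), Olfr1505 (245 kb), Sec61b (187 kb), Eef2kmt (175 kb), Ntm (174 kb) and Eea1 (167 kb) as nearest genes. The Eef2kmt region is the one that overlaps the start of the noncoding gene Gm41414.

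Others of the 20 lay in or near genes. In Bpifb1, a secreted protein of the airway and other epithelia, the fold was 14.5 and 12.5 in the Paro/Neo libraries and 20.0 and 19.9 in the control libraries. In Dot1l, a histone H3 lysine methyltransferase, it was 11.3 and 13.4 in the Paro/Neo libraries and 17.3 and 14.1 in the control libraries. At 0.054 kb beyond the end of Arl8a, a small GTPase of lysosomes, it was 13.9 and 11.9 in the Paro/Neo libraries and 16.9 and 18.9 in the control libraries. Both Paro/Neo folds lay below both control folds at these 3 genes, as they did in 300 of the 610 regions. Mmp13 (2.03 kb away), Trpm2, Clptm1, Pnrc1 (12.5 kb), Bcl2l11 (24.7 kb), a gene of the cell death programme, and Otos (50.1 kb) completed the 20, with folds of 9.61 to 14.0 in the Paro/Neo libraries and 11.2 to 22.4 in the control libraries.

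At the edge of the rule stood regions of 3 libraries, all 3 of the highest of which lacked only Paro/Neo library 2. A second region at Myl2 (chr5:122092760-122093187) had a fold of 6.79 in Paro/Neo library 1 and 10.0 and 8.36 in the control libraries. One in Grk3, a receptor kinase, had 7.32 in Paro/Neo library 1 and 9.46 and 11.1 in the control libraries. One in Bin1, which shapes the transverse tubules of cardiomyocytes, had 7.15 in Paro/Neo library 1 and 9.24 and 9.15 in the control libraries. Just inside the rule, the lowest regions apart from 3 described further on lay in Pgm5, with folds of 4.44 and 4.05 in the Paro/Neo libraries and 3.81 and 3.61 in the control libraries, and 45.1 kb from Itprid2, with 3.35 and 4.05 in the Paro/Neo libraries and 4.25 and 4.42 in the control libraries. These low members thus had smaller folds than the highest regions that the rule left out.

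Ranks differed between libraries at single regions. The median spread of a region's percentile over the 4 lists was 34.8 points. The widest spread, 91.0 points, was 5.06 kb from Syt17, with folds of 3.55 and 5.47 in the Paro/Neo libraries and 9.87 and 6.29 in the control libraries. In Pxylp1 the fold was 9.34 and 3.57 in the Paro/Neo libraries and 10.1 and 9.59 in the control libraries. Paro/Neo library 1 was the low one at Syt17 and Paro/Neo library 2 at Pxylp1. Kalrn, Scfd2 and Synj2 followed, with spreads of 86.1, 85.2 and 84.9 points.

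About the same share of four-library regions as of other regions lay inside genes. A total of 327 (53.6%) overlapped the body of a protein-coding gene, where the background over all merged regions was 52.5%. Within 1 kb of a gene end lay 50 regions (8.2%; background 10.9%), and over 50 kb from every protein-coding gene lay 138 (22.6%; background 21.4%). Of these, 87 were over 100 kb away, 12 over 500 kb and 0 over 1 Mb, where 24 of the 4459 other regions were over 1 Mb. A further 60 regions were outside a gene at under 10 kb, and 85 at 10 to 50 kb. Of those outside, 128 lay upstream of the nearest gene and 91 downstream, and for 64 the strand of that gene was not known. Genes of long noncoding RNA covered 69 of the regions outside coding genes, and 213 regions lay outside every gene of the table. Exons and introns were not assigned, since no exon positions were used.

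The position of peaks was compared within each list, between the peaks in four-library regions and the other peaks. Within 1 kb of a gene end lay 8.03% and 8.03% of the four-library peaks in the Paro/Neo libraries and 8.02% and 8.18% in the control libraries. Of the other peaks, 7.63% and 14.9% lay there in the Paro/Neo libraries and 11.1% and 12.0% in the control libraries. The difference averaged −3.34 percentage points ± 3.0 (SD, n = 4 libraries) and was negative in 3 of the 4 lists (exact two-sided sign-flip permutation p = 0.25). With 4 libraries the smallest p this test can give is 0.125. In gene bodies the difference averaged 1.36 points ± 1.64 (SD, n = 4; exact permutation p = 0.25), and beyond 50 kb it averaged −0.25 points ± 3.20 (SD, n = 4; exact permutation p = 0.875).

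**Figure D3:**
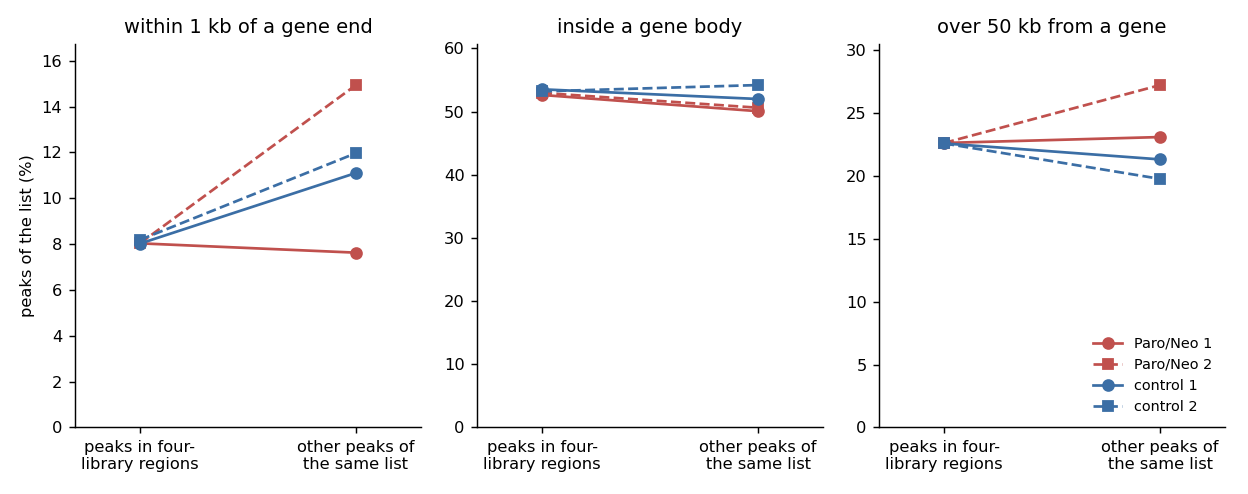
Share of peaks (%) within 1 kb of a gene end, inside a gene body and over 50 kb from a gene, for peaks in four-library regions (left in each panel) and the other peaks of the same list (right), 1 line a library. The four-library shares nearly coincide because they are the same regions, and at gene ends they run from 8.02 to 8.18% against 7.63 to 14.9% for the other peaks.

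Within genes, the regions were spread along the length. Of 245 regions that could be placed by strand, 81 (33.1%) lay in the first of 4 equal parts of the gene and 50 (20.4%) in the last, against 30.2% and 22% of 1824 other regions. The 5 regions farthest from a protein-coding gene had Tbl1xr1 (669 kb), Gm46911 (659 kb), N6amt1 (659 kb), Gramd3 (625 kb) and Fam241a (624 kb) as nearest genes. The Tbl1xr1 region (chr3:21407095-21407444) was a strong one, with folds of 8.24 and 9.05 in the Paro/Neo libraries and 9.15 and 12.6 in the control libraries. Few regions lay close together, with 9 within 10 kb of another and 36 (5.90%) within 50 kb. Chromosome 2 held 55 regions (9.02%), against 7.67% of other regions and 8.14% of protein-coding genes, and chromosome X held 6 (0.984%), against 1.3% of other regions and 4.41% of protein-coding genes.

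Among the 10 regions of highest percentile within 1 kb of a gene end were, after Arl8a, Apobec2, 4921504E06Rik, Zfp68, Ubl3, Galnt15, Dclk2, Lysmd4, Cacna1c and Lsmem2. At Zfp68 the fold was 7.53 and 8.46 in the Paro/Neo libraries and 10.0 and 10.0 in the control libraries. At Ubl3, a ubiquitin-like protein, it was 8.06 and 7.64 in the Paro/Neo libraries and 11.5 and 8.61 in the control libraries. At neither gene did the groups overlap, and the Paro/Neo folds were the lower. The 10 widest regions included those at Peg3 (1689 bp), Cacna1c (1597 bp), 41.8 kb from Otud1 (1575 bp), beside Josd2 (1510 bp), 36.5 kb upstream of Fos (1342 bp), a gene of the immediate early response, and in Cacna1g (1325 bp), Kcng2 (1312 bp) and Plcb2 (1227 bp). In Cacna1g, the pore of a T-type calcium channel, the fold was 9.44 and 6.97 in the Paro/Neo libraries and 11 and 10.4 in the control libraries.

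A gene was said to hold a region when the region overlapped its body or the 5 kb on either side. By this measure 382 of 21887 protein-coding genes (1.75%) held a four-library region, and 11.8% held a Meis1 region of any number of libraries. Long genes hold more of them. Split by length into 10 classes, 0.0913% of genes of the shortest class held a four-library region and 6.72% of the longest. The lists of genes described next were chosen with earlier results of these data known, and they are described by counts alone. Of their 462 genes, 32 held a four-library region.

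Ion channels gave the most members of the lists, and they are long genes. Of 19 potassium channel genes 6 held a four-library region and 13 a Meis1 region of any kind. Their median length was 50.7 kb, and that of the calcium handling and conduction genes 60.1 kb, against 17.2 kb for all protein-coding genes. Kcnh2, the rapid delayed rectifier that repolarises ventricular muscle, held 2. In its body (chr5:24337357-24337830) the fold was 6.37 and 4.75 in the Paro/Neo libraries and 7.17 and 7.14 in the control libraries. The second lay 0.81 kb beyond an end of the gene (chr5:24352494-24352915), with 5.29 and 4.52 in the Paro/Neo libraries and 7.60 and 7.29 in the control libraries. The Paro/Neo folds were the lower at both.

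Kcnj5, a subunit of the acetylcholine-gated channel of the heart, had 6.58 and 6.46 in the Paro/Neo libraries and 6.89 and 8.33 in the control libraries. Abcc9 and Abcc8, the sulfonylurea receptor subunits of ATP-sensitive potassium channels, held 1 region each. Abcc9 had 5.53 and 7.78 in the Paro/Neo libraries and 11.7 and 12.9 in the control libraries, and Abcc8 had 6.76 and 8.28 in the Paro/Neo libraries and 7.58 and 8.03 in the control libraries. The groups overlapped at Abcc8 and not at Kcnj5 or Abcc9. Kcnd2, a voltage-gated channel, had 4.12 and 4.76 in the Paro/Neo libraries and 6.05 and 8.17 in the control libraries, without overlap.

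Of 23 calcium handling and conduction genes 5 held a four-library region, and 14 a region of any kind. Cacnb2, the auxiliary beta subunit of the L-type channel, was the only protein-coding gene of the table to hold 3, along a body of 385 kb. Its widest (chr2:14823017-14824066) had folds of 6.08 and 8.63 in the Paro/Neo libraries and 8.21 and 8.36 in the control libraries. The others had 4.16 and 5.86, and 5.25 and 4.09, in the Paro/Neo libraries, against 7.51 and 7.57, and 6.95 and 7.41, in the control libraries. Only at the first did the groups overlap. Jph2, which ties the plasma membrane to the sarcoplasmic reticulum, had 7.11 and 4.76 in the Paro/Neo libraries and 8.37 and 5.87 in the control libraries. Hcn4, the pacemaker channel, had 5.69 and 6.77 in the Paro/Neo libraries and 9.16 and 9.0 in the control libraries. Jph2 thus had overlapping groups and Hcn4 did not. The list shares Kcnh2 with the potassium channels.

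Farther from a gene, a four-library region had a calcium handling gene as its nearest gene at Ryr2, the calcium release channel, at 26.5 kb (chr13:12133440-12134039). Its fold was 13.3 and 7.82 in the Paro/Neo libraries and 12.9 and 15.1 in the control libraries. At 18.8 kb from Atp2a2, the calcium pump of the sarcoplasmic reticulum, the fold was 10.1 and 9.67 in the Paro/Neo libraries and 10.6 and 7.53 in the control libraries. The groups overlapped at both.

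Of 14 intercalated disc genes, which join cardiomyocytes end to end, 3 held a four-library region and 9 a region of any kind. Over all protein-coding genes these shares were 1.75% and 11.8%. The disc genes are also long, with a median of 53.3 kb against 17.2 kb. In Cdh2, the cadherin of the disc, the fold was 9.91 and 9.56 in the Paro/Neo libraries and 8.61 and 11.9 in the control libraries. In Pkp2, a desmosome protein, it was 5.62 and 6.98 in the Paro/Neo libraries and 6.08 and 8.66 in the control libraries. At 2.61 kb from Dsp, which anchors desmosomes to filaments, it was 5.93 and 5.55 in the Paro/Neo libraries and 7.82 and 5.34 in the control libraries. There was overlap between the groups at all 3.

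Of 26 sarcomere genes 12 held a Meis1 region of any kind, but Myl2 alone held one of all 4 libraries. Without the shortest list, that of Paro/Neo library 2, regions of the remaining 3 lists lay at 5 sarcomere genes.

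Of 11 TALE homeobox genes, the class of Meis1 itself, 3 held a four-library region and 7 a region of any kind, against 1.75% and 11.8% of all protein-coding genes. Their median length was 43.0 kb, against 17.2 kb for all. In Pknox1, a related factor, the fold was 4.91 and 5.69 in the Paro/Neo libraries and 8.14 and 7.00 in the control libraries. At Meis1, within the gene and 0.83 kb from an end, it was 4.73 and 4.89 in the Paro/Neo libraries and 7.79 and 4.86 in the control libraries. The groups overlapped at Meis1 and not at Pknox1.

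Of 21 cardiac transcription factor genes 3 held a four-library region, and a further 4 were the nearest gene of one. A region of any kind was held by 10. The shares over all protein-coding genes were 1.75% and 11.8%, and the median lengths were 33.1 kb for this list and 17.2 kb for all. In Prdm16 the fold was 7.54 and 5.58 in the Paro/Neo libraries and 10.8 and 13.0 in the control libraries. In Myocd, a coactivator of serum response factor, it was 7.07 and 9.34 in the Paro/Neo libraries and 4.87 and 9.06 in the control libraries. In Mef2a it was 4.49 and 3.99 in the Paro/Neo libraries and 6.20 and 5.60 in the control libraries. Of these, Myocd alone had overlapping groups. The regions nearest to Tbx3 (95.1 kb), Tead1 (22.7 kb) and Gata6 (59.3 kb), and the 2 nearest to Hand2 (36.5 and 116 kb), lay outside the 5 kb. At the Tbx3 region, the strongest of these, the fold was 8.44 and 11.7 in the Paro/Neo libraries and 11 and 13.3 in the control libraries.

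Neither list of cell cycle genes held a four-library region. Over all protein-coding genes the share was 1.75% for four-library regions and 11.8% for regions of any kind. A count of 0 in lists this small is therefore not a result about these genes. Of 26 cell cycle driver genes 0 held a four-library region and 1 a region of any kind, and of 10 genes of CDK inhibitors and pocket proteins 0 held a four-library region and 2 a region of any kind. The median length of these genes, 13.4 and 7.81 kb, is short beside the 69.9 kb of genes that held a four-library region. At a distance, Myc was the nearest gene of 2 regions (218 and 523 kb) and Mki67 of 1 (86.0 kb). The lists of Hippo pathway, calcineurin and NFAT, ErbB and insulin signalling, fatty acid oxidation, circadian clock and TGF-beta genes, and of genes of other tissues, likewise held 0 four-library regions, although 3 to 8 of their genes held a region of fewer libraries. Single regions lay at Wnt11, Egln3, an oxygen-sensing prolyl hydroxylase, and Dot1l, and 2 each at Notch pathway genes (Heyl and Maml3) and cytoskeleton regulators (Arhgap26 and Fhod3).

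Fhl2, a LIM domain protein of heart muscle counted in that last list, held none within 5 kb but was the nearest gene of 3 regions, at 41.4, 49.3 and 52.0 kb. Their folds ran from 4.14 to 8.50 in the Paro/Neo libraries and from 5.34 to 9.37 in the control libraries. Slc4a3, an anion exchanger, was also the nearest gene of 3 regions, 1 in its body and 2 at 103 and 524 kb. Ankrd1, a stress-responsive protein of the sarcomere, was the nearest gene of 2, at 47.4 and 110 kb. The 610 regions had 574 nearest protein-coding genes in all, 33 of them with 2 or more regions.

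Markers of other cells of the heart were among the genes that held four-library regions. Of 18 endothelial markers 3 held one, of 15 fibroblast markers 2, of 10 smooth muscle and pericyte markers 1, and of 6 cardiomyocyte markers 1. With lists of equal length the endothelial count was 1. The share over all protein-coding genes was 1.75%. A region of any number of libraries was held by 3 endothelial, 4 fibroblast, 1 smooth muscle and pericyte and 4 cardiomyocyte markers. In the same order, the median gene lengths were 44.6, 38.2, 37.4 and 18.4 kb. In Pecam1, an endothelial adhesion protein, the fold was 6.49 and 6.26 in the Paro/Neo libraries and 10.7 and 9.97 in the control libraries. In Tek, an endothelial receptor, it was 5.49 and 6.38 in the Paro/Neo libraries and 5.17 and 6.22 in the control libraries. In Gsn, an actin-severing protein strong in fibroblasts, it was 7.73 and 8.2 in the Paro/Neo libraries and 10.4 and 6.36 in the control libraries. Pecam1 was the gene of these without overlap between the groups. The further members were Ets1, Loxl1 and, for smooth muscle, Abcc9. Of 14 macrophage and leukocyte markers, 8 erythroid markers and 24 ribosomal protein genes, 0 held a Meis1 region of any number of libraries. The median lengths of these lists were 15.3, 2.36 and 3.88 kb. Such a region was held by 11.8% of all protein-coding genes and by 1.0% of those in the shortest length class. Peak lists of whole ventricle do not tell which cells a region comes from.

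**Figure D4:**
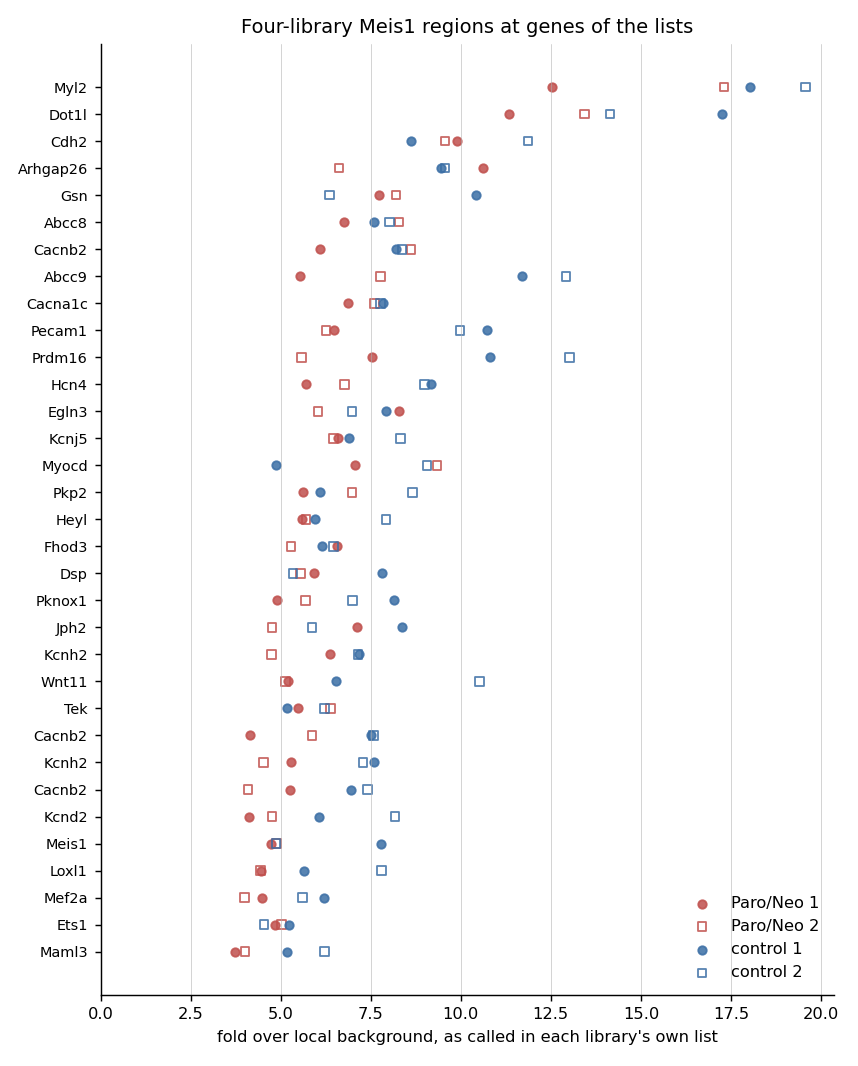
Fold of four-library regions held by genes of the lists, 1 row a region (x axis, each library's own fold scale; points by library, Paro/Neo and control). Myl2 has the highest folds, 12.5 and 17.3 in the Paro/Neo libraries and 18 and 19.6 in the control libraries, and the lowest single fold is 3.74, at Maml3 in Paro/Neo library 1.

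The Hoxb13 lists, which the rule did not use, differ greatly in length. They held 821 and 16963 peaks in the Paro/Neo libraries and 5202 and 1121 in the control libraries. Hoxb13 peaks overlapped 14 (2.30%) and 270 (44.3%) of the four-library regions in the Paro/Neo libraries and 49 (8.03%) and 17 (2.79%) in the control libraries. The background over all merged Meis1 regions was 1.68% and 29.3% for the Paro/Neo libraries and 7.12% and 2.17% for the control libraries. Nearly all the overlap thus came from the longest list, and of the 223 regions that overlapped a single list, 222 overlapped Paro/Neo library 2. Against the other Meis1 regions the share was higher in all 4 Hoxb13 lists. The difference averaged 4.86 percentage points ± 8.10 (SD, n = 4 libraries; exact two-sided sign-flip permutation p = 0.125, the smallest possible). Counted by the centre of the Meis1 region it was 3.84 points (exact sign-flip permutation p = 0.25). By centre, control library 1 had 5.25% against 5.29%, so the share was not higher in every list.

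The difference was smaller against the most similar regions. Set against the 642 regions of exactly 3 Meis1 libraries, the four-library regions overlapped 1.18 points more on average (exact permutation p = 1), and less in 3 of the 4 Hoxb13 lists. Among regions of 250 to 450 bp alone the difference was 1.25 points (exact permutation p = 1), and only Hoxb13 Paro/Neo library 2 had the higher share in four-library regions. Against all other Meis1 regions, but without Hoxb13 Paro/Neo library 2, the difference was 0.813 points over 3 libraries (exact permutation p = 0.25, the smallest possible with 3). Between the treatments, the overlap of four-library regions was 17.9 points higher in Paro/Neo than in control libraries (exact permutation p = 1, smallest possible 0.33), and −3.11 points without Hoxb13 Paro/Neo library 2.

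**Figure D5:**
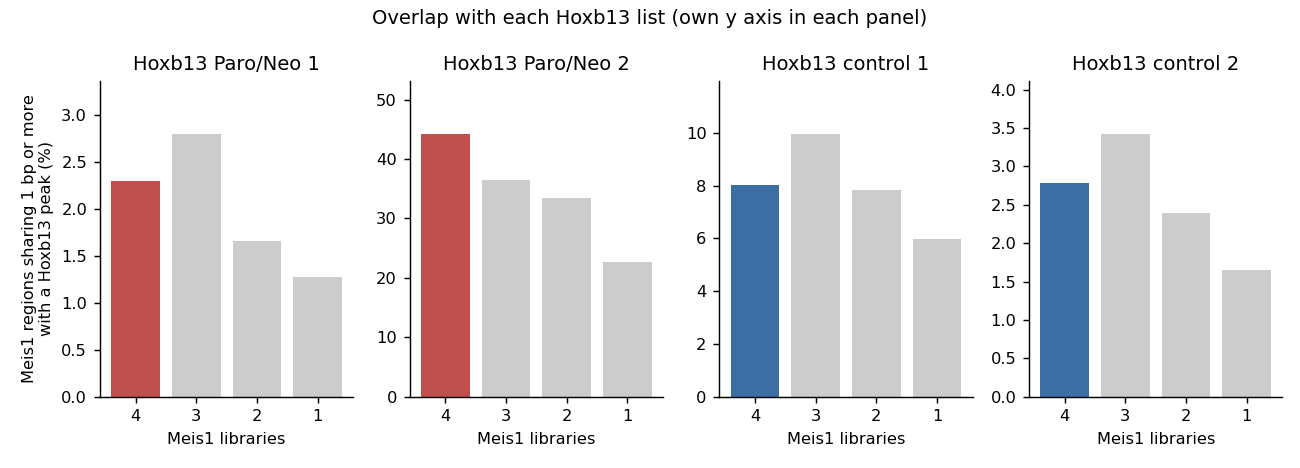
Share of Meis1 regions (%) that share 1 bp or more with a Hoxb13 peak, by the number of Meis1 libraries that called the region, 1 panel for each Hoxb13 library with its own y axis. In Paro/Neo library 2 the share was 44.3% for 4 libraries and 22.7% for 1 library, and in the other 3 lists the highest share was that of regions of 3 libraries.

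The regions with a Hoxb13 peak differed in place from those without. Of 271 four-library regions that overlapped any Hoxb13 list (44.4%; background 29.6%), 39 lay within 1 kb of a gene end (14.4%), against 11 of the 339 with none (3.24%). They were somewhat wider, with a median of 396 bp against 354 bp. Their median mean fold percentile was 78.1 against 74.8. No test was made, since regions are not replicates and width moves with the chance of overlap.

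Peaks of all 4 Hoxb13 lists were found at 13 four-library regions (2.13%; background 1.24%), 7 of which lay within 1 kb of a gene end. The strongest in Meis1 lay 1.41 kb from Dusp1, a phosphatase that switches off MAP kinases (chr17:26502962-26504182), with Meis1 folds of 5.79 and 7.50 in the Paro/Neo libraries and 8.74 and 8.36 in the control libraries. The next lay 0.916 kb from Mb, myoglobin, the oxygen-binding protein of muscle (chr15:77013850-77014571), with 6.74 and 5.93 in the Paro/Neo libraries and 7.01 and 7.40 in the control libraries. The Paro/Neo folds were the lower at both, without overlap. The others with folds above 3 lay at Ssbp2, Ska2, Plekhf1, Myadm, Hip1, Evi5l, LOC108167694 and Mylpf.

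The last 3 of the 13 stand apart from all other members. In a region of 5805 bp (chr17:39843017-39848821), which covers the noncoding gene AY036118 and the ribosomal RNA pseudogene Rn18s-rs5, the fold was 1.63 and 1.93 in the Paro/Neo libraries and 1.55 and 1.82 in the control libraries. In a region of 2098 bp near the start of the assembled chromosome 9 (chr9:3000191-3002288) it was 1.63 and 1.65 in the Paro/Neo libraries and 1.59 and 1.66 in the control libraries. In a region of 381 bp in Cdk8 (chr5:146260953-146261333) it was 2.14 and 1.98 in the Paro/Neo libraries and 1.78 and 1.78 in the control libraries. The groups overlapped at the first 2 and not in Cdk8. These 3 were the only members with every fold under 2.5, and the next lowest member reached 4.42. A total of 41 other Meis1 regions also stayed under 2.5. Leaving out all 13 regions changed the gene-end difference to −4.21 percentage points (exact sign-flip permutation p = 0.125, the smallest possible). Of the 13, 53.8% lay within 1 kb of a gene end, against 8.2% of all four-library regions. Their removal thus lowers the four-library share by construction. The 3 regions of low fold were not among those at a gene end.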

How the data were processed

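Peaks were called by the submitters in each Meis1 and Hoxb13 library separately. Per the submitters' processing notes, the tools were Bowtie2, MACS2, HOMER, FastQC 0.11.5 and Picard 1.127, with build mm10. Caller options, filters and control input were not given in the sources used here, and inputs were not analysed here. The deposited fold, a ratio of a peak's signal to its local background, and the deposited −log10 q of each peak are the authors' values, used to describe, rank or filter peaks within one list. Lists were of 1025 to 3529 peaks for Meis1, and depth is unknown, so an absent peak has no detection limit. Intervals cover counting error only.

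Groups follow the labels, although the second-replicate Meis1 file names carry the other group's letter. Peaks were merged at 1 bp, and fold percentiles were taken within each list. Genes came from the RefSeq table of GRCm38.p6, which holds no exons. Shares of peaks were compared within libraries by exact sign-flip permutation over 16 orders, and Hoxb13 overlap between treatments over 6 orders. Overlap and distance code was tested on simulated intervals. Alternatives were a −log10 q of 2 or more, a merge at 50 bp, lists cut to equal length, other distances and gene sets, other peaks weighted by fold, and each library left out. Python 3.11.15 with numpy 2.4.6, pandas 2.3.3, scipy 1.17.1 and matplotlib 3.10.9 was used.

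Regions named were the 20 of highest and 5 of lowest mean percentile, the 10 widest, the 5 farthest from a gene, up to 15 with all 4 Hoxb13 lists, the 10 highest at gene ends, the 5 of widest spread, 3 just outside the rule, genes with 3 or more regions, and list genes holding one. Promoter sequences and distant list genes were chosen after their values were seen. The members and lists were chosen with earlier results of these data known. The RefSeq promoter table as used here holds 32851 windows and none on chromosome 18. A few list genes are not reported here.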

Additional observations from a re-analysis of the deposited data

How the results depend on the processing

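Of the main results under the alternatives run, 5 values reversed and 2 counts moved by over 1.5 times. No permutation p over 4 libraries can pass 0.05, so stability is read from direction and size alone. The number of four-library regions was 623 to 1056 when 1 library was left out (then called in the other 3). It was 1056 without Paro/Neo replicate 2, 587 at a −log10 q of 2 or more, 408 with lists of equal length and 610 with a merge at 50 bp. List genes with a region numbered 32, 25 with lists of equal length, 29 within 1 kb of the gene body and 49 when a gene had only to be nearest. The difference in the share over 50 kb from a gene, −0.25 points, reversed to 1.96 at a −log10 q of 2 or more, 2.62 with other peaks weighted to the fold quartiles of four-library peaks (exact sign-flip permutation p = 0.125 for both, the smallest possible) and 0.011 at 10 kb, and ran from −1.56 to 0.80 with 1 library left out, the reversal being without Paro/Neo replicate 2. The gene-body difference, 1.36 points, was 2.82 without Paro/Neo replicate 2, 2.63 with all genes of the table and 0.136 with other peaks weighted by fold. The Hoxb13 difference, 4.86 points, was 2.69 ± 9.45 (SD, n = 4 libraries) with Meis1 lists of equal length and the Hoxb13 lists uncut. With Hoxb13 lists of equal length instead, it was 0.703 and 1.38 points in the Paro/Neo libraries and 1.24 and 0.496 in the control libraries. The gene-end difference stayed negative in every alternative run, was −1.62 with lists of equal length and −1.42 within 5 kb, and ran from −3.52 to −2.28 with 1 library left out. The cause of these changes was not tested.

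The Paro/Neo minus control difference in Hoxb13 overlap, 17.9 points, ran from −3.11 to 38.9 with 1 Hoxb13 library left out, reversing without Hoxb13 Paro/Neo replicate 2, and was 0.656 with Hoxb13 lists of equal length. With the replicate number as a block it was again 17.9 points (exact permutation p = 1, smallest possible 0.5). The numbers are not known to pair the samples. The TGACAG difference between windows of four-library and of other regions, 14.7 points, ran from 9.74 to 17.5 with 1 Meis1 library left out, 10.8 for protein-coding genes alone, 15.6 for matches inside the region and 19.6 by region. These motif alternatives, the limit to regions of 250 to 450 bp and the removal of regions in all Hoxb13 lists were chosen after seeing the data.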

Other observations

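Hairpins of 7 microRNA genes lay within 5 kb of a four-library region. The closest was Mir210, a microRNA induced by low oxygen, at 0.262 kb from a region whose nearest protein-coding gene is Rassf7 (chr7:141221755-141222110). The fold of that region was 5.17 and 3.45 in the Paro/Neo libraries and 6.39 and 5.17 in the control libraries, with a percentile of 4.98 in Paro/Neo library 2, near the foot of its list. Mir7085 lay at 0.698 kb from a region in Slc37a4, with 7.40 and 6.68 in the Paro/Neo libraries and 6.61 and 7.46 in the control libraries. Mir301 lay at 3.67 kb from the region over the start of Ska2, with 4.64 and 5.52 in the Paro/Neo libraries and 5.52 and 8.29 in the control libraries. The other 4 were Mir7052, Mir6347, Mir6943 and Mir7041, at 1.62 to 4.85 kb. These genes were looked for after the regions were known, and no share over all microRNA genes was set beside them.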
